A study of Caenorhabditis elegans with 6 samples.

Results

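The Argonaute genes of soma and germline are 10 of the 46726 genes counted in sorted touch neurons, alg-1, alg-2, rde-1, nrde-3, ergo-1, prg-1, csr-1, hrde-1, alg-3 and alg-4. They were taken by symbol, matched to the WormBase identifiers of the count files through release 115 of the WBcel235 annotation, and all 10 were found. RNA-seq was performed on GFP-positive cells from L4 animals, with 3 libraries from mec-8(e398) mutants and 3 from wild type. Animals of both genotypes carried GFP under the mec-4 promoter, which labels the touch neurons, although the labels give the wild-type strain as N2 and name no transgene. mec-8(e398) is a mutant allele of the splicing factor MEC-8, and each library pooled cells from a large number of dissociated animals. The replicates are described as biological, so p-values measure the spread between separate sorts. Where 3 values are given for a genotype, they belong to replicates 1, 2 and 3.

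Argonaute proteins bind small RNAs and use them as guides to find complementary transcripts. In C. elegans, ALG-1 and ALG-2 carry microRNAs, RDE-1 takes up siRNAs cut from foreign double-stranded RNA, and NRDE-3 brings secondary siRNAs into the nuclei of somatic cells. The germline has its own set. PRG-1 is the PIWI protein that carries piRNAs, CSR-1 binds siRNAs against transcripts expressed in the germline, HRDE-1 acts in germline nuclei and in inherited silencing, and ERGO-1 binds primary siRNAs made in oocytes and embryos. ALG-3 and ALG-4 are needed in developing sperm, where they bind a related class of primary siRNAs. For the description below alg-1, alg-2, rde-1 and nrde-3 are grouped as somatic, ergo-1, prg-1, csr-1 and hrde-1 as germline, and alg-3 and alg-4 as sperm members. The grouping is a simplification, since rde-1 also acts in the germline and csr-1 in some somatic cells.

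Depth was between 15334872 and 33094142 reads counted on genes, and levels are given as CPM, in which each gene is scaled to the same total of those reads. At this depth 3 counts stood at 0.0907 to 0.196 CPM. The targeted gene mec-8 had 59 to 775 counts in mec-8 libraries and 143 to 817 in wild-type libraries, and these ranges overlap. Gene counts do not read the e398 mutation, so they do not check the labels. All 10 touch neuron genes of the marker list were detected in every library, and together they took 0.103% to 1.15% of the gene counts in mec-8 libraries and 0.162% to 1.47% in wild-type libraries. As CPM they summed to 1026 to 11523 in mec-8 libraries and 1620 to 14706 in wild-type libraries. Counts on marker genes of other cell types were present beside them. Some lists took larger shares in single libraries, such as 8.19% for the major sperm protein genes in mec-8 replicate 1. The muscle genes took 4.65% in wild-type replicate 3, whereas the pan-neuronal genes took less than the touch neuron genes in every library. The 14 germline and oocyte marker genes summed to 715 to 1564 CPM in mec-8 libraries and 520 to 9320 CPM in wild-type libraries, with 0 of the 14 at 0 counts in any library. The 12 spermatogenesis genes summed to 412 to 3568 CPM in mec-8 libraries and 21.2 to 1307 CPM in wild-type libraries. Wild-type replicate 1 stood apart in counting, with 11.1% of its unique reads on more than 1 gene against 2.62% to 3.04% in the others.

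Of the counts on the 10 genes, most fell on sperm and germline members, and not on the somatic members, in each sorted library. Argonaute genes outside the 10, such as wago-1 at 153 to 721 CPM and ppw-2 at 65.1 to 458 CPM, are not in these shares. The 4 germline members took 16.4%, 76.0% and 64.7% of the counts on all 10 genes in mec-8 libraries, against 88.6%, 67.3% and 54.7% in wild-type libraries. The 4 somatic members took 5.88%, 12.6% and 15.6% in mec-8 libraries, against 11.3%, 31.7% and 7.71% in wild-type libraries. In each of the 6 libraries the somatic members were the smaller of these 2 groups.

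The sperm members varied far more. They held 77.7%, 11.3% and 19.7% of the same counts in mec-8 libraries, against 0.0972%, 1.01% and 37.6% in wild-type libraries. The 95% Wilson interval was 77.4% to 78.1% for the highest of these shares and 0.0622% to 0.152% for the lowest. Such intervals cover counting error only, and they are narrow beside the differences between libraries of 1 genotype. In bulk RNA from sorted cells, more cells of a type and more RNA per cell cannot be told apart.

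**Figure D1:**
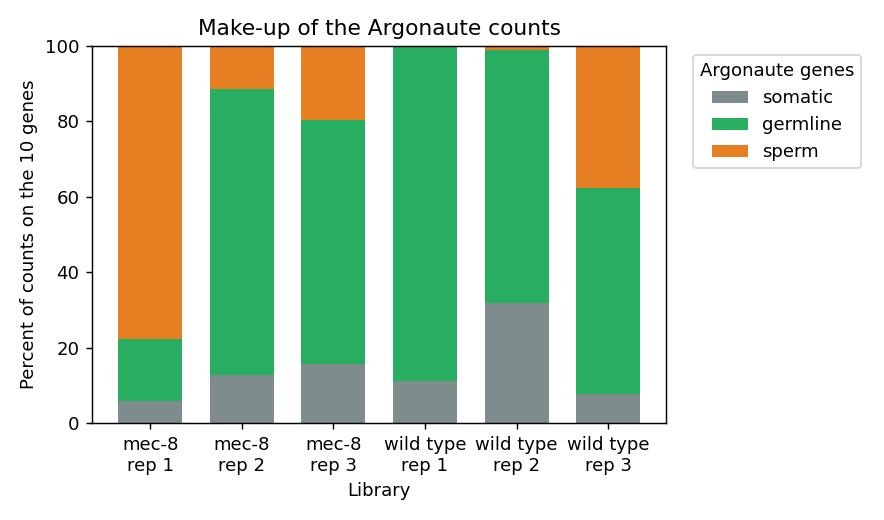
Percent of the counts on the 10 Argonaute genes (y axis) that fell on somatic, germline and sperm members in each library (x axis, mec-8 left, wild type right). The sperm segment fills 77.7% of mec-8 replicate 1 and 37.6% of wild-type replicate 3, and 0.0972% of wild-type replicate 1.

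Summed as CPM, the somatic members had 99.1 ± 18.7 in mec-8 and 123 ± 50.2 in wild type, and the germline members had 448 ± 249 in mec-8 and 596 ± 190 in wild type (SD, n = 3 each). The sperm members had 443 ± 572 CPM in mec-8 and 153 ± 259 CPM in wild type (SD, n = 3 each). From the lowest to the highest of the 6 libraries, the summed CPM differed 2.16-fold for somatic, 3.22-fold for germline and 1345-fold for sperm members.

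The spread of single members followed the same split. The standard deviation of log2 CPM over the 6 libraries had a median of 1.63 over all 14614 genes tested. For alg-4 it was 4.30, above 93.2% of those genes, and for alg-3 it was 3.64, above 85.7%. The other 8 members lay under the median, between 0.50 for rde-1, above 3.48% of genes, and 1.20 for nrde-3, above 36.2%. Thus the somatic and germline members were steadier than the median gene of these libraries, while alg-3 and alg-4 were among the more uneven genes. The genes were not matched for level, so the part of level in this ranking was not tested.

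**Figure D2:**
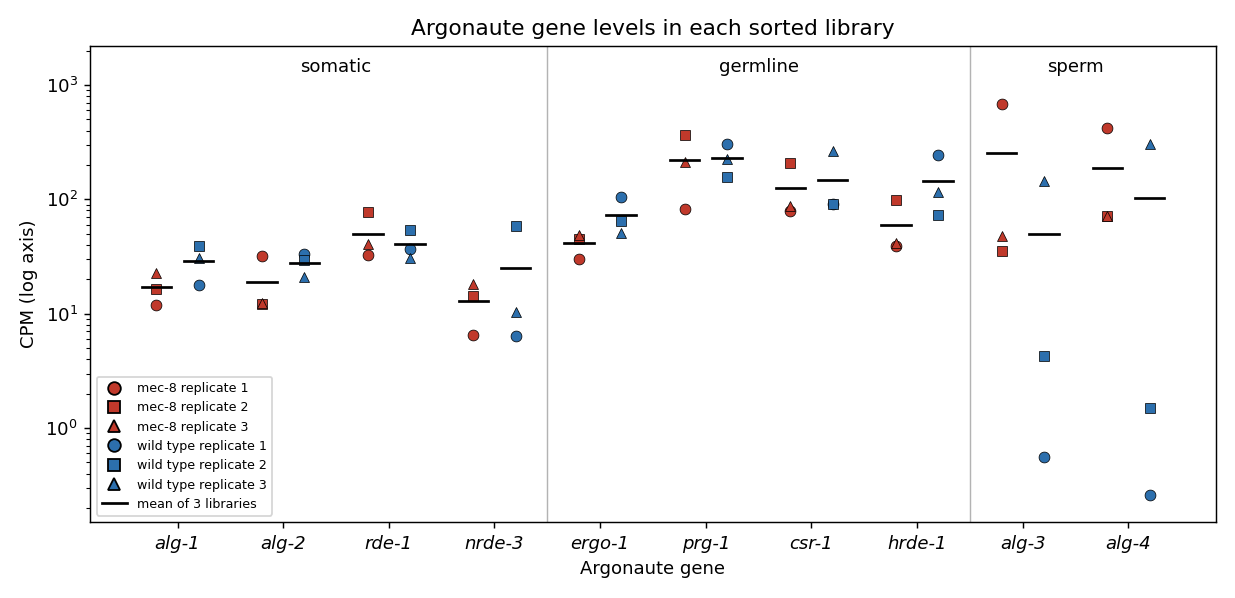
CPM on a log axis (y) of each of the 10 Argonaute genes (x), with 1 point per library, mec-8 in red at the left and wild type in blue at the right of each gene, and bars at the means of 3 libraries. The other 8 genes each span less than 1 decade, whereas alg-3 reaches from 0.561 to 684 CPM and alg-4 from 0.259 to 420 CPM.

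Across all genes, edgeR's quasi-likelihood test gave 0 of 14614 genes an adjusted p under 0.05 (Benjamini-Hochberg), or 0%. Before adjustment, 470 genes or 3.22% lay under 0.05, 2.87% higher in mec-8 and 0.349% lower. Of the 10 Argonaute genes, all of which passed the filter on low counts, 0 had an adjusted p under 0.05 and 0 had an unadjusted p under 0.05 in edgeR. DESeq2, which called 0.278% of all genes, and limma voom also gave 0 of the 10 an adjusted p under 0.05, and DESeq2 returned no p-value for alg-3 and alg-4. The adjusted p was 1.0 for each of the 10 in edgeR. Log2 fold changes of mec-8 over wild type were above 0 for 3 members and below 0 for 7, with a median of -0.45, beside 50.5% above 0 and a median of 0.01 over all genes tested. A test that misses its threshold at this spread does not show that the genotypes express these genes alike.

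**Figure D3:**
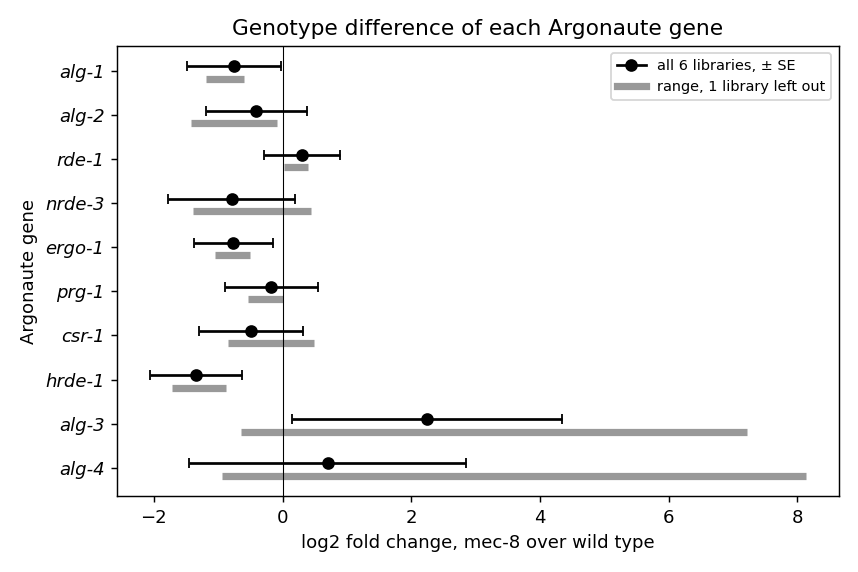
Log2 fold change of mec-8 over wild type (x axis) for each Argonaute gene (y axis) in edgeR, with points and bars for all 6 libraries ± standard error, and grey bars for the range when 1 library is left out. The grey bars of alg-3 and alg-4 run from -0.65 to 7.22 and from -0.94 to 8.13, far wider than those of the other genes.

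alg-3 (WBGene00011910) lies in WBcel235 at chrIV:11704246-11708264 (plus strand), with 3275 bases of exon, none of them shared with another annotated gene. It had 22633, 1066 and 1076 counts in mec-8 libraries, against 13, 118 and 2239 counts in wild-type libraries. As CPM these are 684, 35.3 and 47.4 in mec-8, against 0.561, 4.23 and 146 in wild type. The genotypes overlap, because wild-type replicate 3 stands above mec-8 replicates 2 and 3. Within 1 genotype the levels differed 19.4-fold in mec-8 and 260.1-fold in wild type. Its log2 fold change was 2.24 ± 2.10 (SE). The difference in mean CPM gave p = 0.5 by exact permutation of the genotypes (two-sided, with 0.1 the smallest possible).

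alg-4 (WBGene00006449), its close paralog, lies at chrIII:9887209-9891424 (minus strand) and has 3463 bases of exon. It had 13896, 2184 and 1616 counts in mec-8 libraries, against 6, 42 and 4697 in wild-type libraries. In CPM, mec-8 stood at 420, 72.2 and 71.2, against 0.259, 1.51 and 306 in wild type. The same libraries were high and low as for alg-3, with wild-type replicate 1 near the level of 3 counts. On the log2 scale the fold change was 0.70 ± 2.15 (SE).

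Both sperm members thus ranged from the bottom to the top of the libraries. Among genes with at least 1 count, alg-3 stood at percentile 98.9 in mec-8 replicate 1 and 14.4 in wild-type replicate 1, and alg-4 at percentile 98.3 in wild-type replicate 3 and 9.14 in wild-type replicate 1. Of the single libraries left out, only mec-8 replicate 1 turned the direction of the genotype difference when removed. Without mec-8 replicate 1 the log2 fold change was -0.65 for alg-3 and -0.94 for alg-4. Without wild-type replicate 3 it was 7.22 for alg-3 and 8.13 for alg-4, with adjusted p of 0.406 and 0.239 in edgeR.

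The balance between the paralogs also differed between libraries. alg-3 made up 62.0%, 32.8% and 40.0% of the counts on the pair in mec-8 libraries, against 68.4%, 73.8% and 32.3% in wild-type libraries. The exact 95% binomial interval was 61.5% to 62.5% in mec-8 replicate 1, against 31.2% to 33.4% in wild-type replicate 3. Wild-type replicate 1 had only 19 counts on the pair, with an interval of 43.4% to 87.4%. The 2 libraries with the most sperm Argonaute counts, mec-8 replicate 1 and wild-type replicate 3, therefore held the pair in opposite order. Paralogs can lose reads that align to both, and the share lost by each gene was not measured. Wild-type replicate 1, where the pair was lowest, had 70024247 alignments that were not unique, against 1922629 to 11988379 in the other libraries, and the part of these in the alg-3 and alg-4 values was not tested.

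The summed level of sperm genes was high in the libraries where alg-3 and alg-4 were high, but the lowest library differed. The 12 spermatogenesis genes of the marker list summed to 3568, 503 and 412 CPM in mec-8 libraries, against 105, 21.2 and 1307 CPM in wild-type libraries. Between the lowest libraries the order turned, since alg-3 and alg-4 together had 0.820 CPM in wild-type replicate 1 and 5.74 CPM in wild-type replicate 2. Of the 12, spe-12 was at 0 in mec-8 replicate 3 and wild-type replicates 1 and 2, spe-9, spe-10 and spe-26 in wild-type replicate 1, and spe-11 and htas-1 in wild-type replicate 2. Set beside that list, the sperm members took 23.6%, 17.6% and 22.3% of the combined counts in mec-8 libraries, against 0.776%, 21.3% and 25.7% in wild-type libraries. In 5 of the 6 libraries the share lay between 17.6% and 25.7%. In wild-type replicate 1 the 95% Wilson interval was 0.497% to 1.21%. High sums in these libraries were not particular to sperm genes. The 6 muscle marker genes summed to 28863 CPM in mec-8 replicate 1 and 46544 CPM in wild-type replicate 3, against 1854 to 6583.5 CPM in the others. Taken singly, 3 of the 6 muscle genes were highest in wild-type replicate 2.

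The major sperm proteins, which drive sperm motility and signal to oocytes, gave a different picture. Their 31 genes summed to 81870, 2501 and 4008 CPM in mec-8 libraries, against 1507, 26.04 and 3444 CPM in wild-type libraries. The sperm members made up 1.33%, 4.12% and 2.87% of the combined counts in mec-8 libraries, against 0.0544%, 18.1% and 11.6% in wild-type libraries. Wild-type replicate 1 thus held 34909 counts of the family beside 19 of alg-3 and alg-4, while wild-type replicate 3 held 52809 beside 6936. Members of this family are nearly identical, so unique counting sets an unknown part of their reads aside.

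Single genes of the spermatogenesis list did not keep 1 ratio to each other or to the sperm members. Of the 12 genes, 9 were highest in mec-8 replicate 1, as alg-3 and alg-4 were, and 3 were highest in wild-type replicate 3. The 3 are spe-9, fer-1 and spe-44, a transcription factor of spermatogenesis, and they are named after their values were seen. spe-44 had 60.9, 210 and 129 CPM in mec-8 libraries, against 36.6, 15.7 and 439 CPM in wild-type libraries. fer-1, a membrane fusion protein of sperm, had 119, 63.4 and 59.2 CPM in mec-8 libraries, against 3.76, 0.932 and 198 CPM in wild-type libraries. The profile of alg-3 lay 1.79 from fer-1, 2.31 from gsp-3, 2.34 from spe-4 and 2.77 from spe-44, as root mean square differences of centred log2 CPM over the 6 libraries. That of alg-4 lay 1.75 from fer-1, 2.17 from spe-4, 2.53 from gsp-3 and 2.98 from spe-44. In the order of 14613 genes by nearness, these 4 stood in places 608 to 2214 from alg-3 and in places 586 to 1788 from alg-4. The part of sperm cells or sperm RNA in the alg-3 and alg-4 values was not tested.

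**Figure D4:**
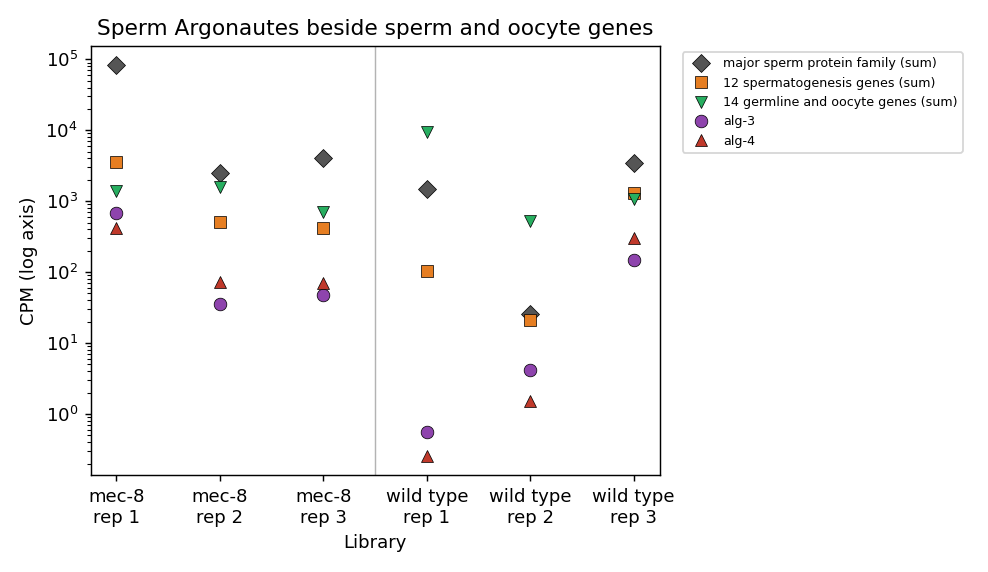
CPM on a log axis (y) in each library (x, mec-8 left, wild type right) of alg-3 and alg-4 beside the summed CPM of the 12 spermatogenesis genes, the 31 major sperm protein genes and the 14 germline and oocyte genes. In wild-type replicate 1 the 14 germline and oocyte genes stand at 9320 CPM and the major sperm protein genes at 1507 CPM, above alg-3 at 0.561 CPM.

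The genes with profiles most like those of alg-3 and alg-4 were measured by the root mean square difference of log2 CPM, centred on each gene's mean, over the 6 libraries. For alg-3 they were mpz-4 at a difference of 0.26 and F35C11.2 at 0.41, and for alg-4 they were Y39F10A.3 at 0.40 and F15D3.4 at 0.43. alg-4 itself lay 1.02 from alg-3, in place 87 of 14613 genes ordered by nearness to alg-3. With 6 libraries and 14614 genes, close profiles are a description of these libraries and carry no test.

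prg-1 (WBGene00004178) had the highest level of the 10 per kilobase of exon, with a median over the 6 libraries of 82.1 CPM per kilobase. It lies at chrI:7585329-7588367 (minus strand). In CPM it stood at 83.2, 368 and 211 in mec-8 libraries, against 307, 156 and 226 in wild-type libraries. The lowest and the highest library were both mec-8, and the wild-type libraries lay between them. Its log2 fold change was -0.18 ± 0.72 (SE), and without mec-8 replicate 1 the log2 fold change was 0.0082. For scale, only 3 or 4 of the 10 touch neuron genes had a higher level per kilobase than prg-1 in 5 of the libraries, and 8 of the 10 did in mec-8 replicate 1.

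csr-1 (WBGene00017641) came next in level, with a median of 24.7 CPM per kilobase. It lies at chrIV:7957267-7962157 (plus strand). It stood at 79.8, 208.5 and 87.7 CPM in mec-8 libraries, against 91.2, 90.3 and 265 CPM in wild-type libraries. One library of each genotype, mec-8 replicate 2 and wild-type replicate 3, stood at over 2 times the others of its genotype. Its log2 fold change was -0.49 ± 0.80 (SE), and without wild-type replicate 3 it was 0.48. Of its 3668 exon bases, 438 (11.9%) are shared with frpr-10 on the same strand, and reads that fall there may have been set aside as belonging to more than 1 gene.

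hrde-1 (WBGene00007624), at chrIII:4172337-4176159 (minus strand), had 39.4, 99.5 and 41.7 CPM in mec-8 libraries, against 246 in wild-type replicate 1, 72.8 in wild-type replicate 2 and 116 in wild-type replicate 3. It showed the smallest unadjusted p of the 10, at -1.35 ± 0.71 (SE) on the log2 scale, with an unadjusted p = 0.0983 and an adjusted p = 1.0 by the edgeR quasi-likelihood test. The sign stayed negative with any 1 library left out, from -1.71 to -0.88. The genotypes overlap all the same, since mec-8 replicate 2 stands above wild-type replicate 2.

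ergo-1 (WBGene00019971), at chrV:1008803-1018352 (plus strand), was the 1 member of the 10 whose libraries did not overlap between genotypes as CPM. It had 30.1, 44.8 and 49.1 CPM in mec-8 libraries, against 104.4, 64.6 and 50.5 CPM in wild-type libraries. Over all genes tested, 6.99% did not overlap, and 1.49% had every mec-8 library below every wild-type library. The gap was small, 49.1 CPM in mec-8 replicate 3 against 50.5 CPM in wild-type replicate 3, and after TMM scaling the libraries overlap, with 55.2 CPM in mec-8 replicate 3 against 53.3 CPM in wild-type replicate 2. On the log2 scale the fold change was -0.77 ± 0.61 (SE), and an exact permutation of the CPM gave p = 0.1, two-sided.

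Some oocyte genes were high in the library where hrde-1 and ergo-1 were highest. That library, wild-type replicate 1, held 9320 CPM on the 14 germline and oocyte genes, against 520 to 1564 CPM in the other 5 libraries. Of the 14 genes, 9 were highest there and 2, nos-3 and syp-1, were lowest there. Most of the sum came from rme-2, the yolk receptor of oocytes, cbd-1, an eggshell protein, and puf-5, an RNA-binding protein of oocytes, with 4644, 2003 and 1469 CPM in wild-type replicate 1. syp-1, a protein of meiotic chromosomes, had 16.3, 78.6 and 21.2 CPM in mec-8 libraries, against 14.6, 18.1 and 26.2 CPM in wild-type libraries. These genes were named after their values were seen. The part of oocyte RNA in the ergo-1 and hrde-1 values was not tested, and without wild-type replicate 1 the log2 fold change was -0.50 for ergo-1 and -0.88 for hrde-1.

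The germline members did not keep 1 ratio. Of the counts on the 4, hrde-1 held 16.96%, 13.8% and 10.7% in mec-8 libraries, against 32.8%, 19% and 17.6% in wild-type libraries. csr-1 held 34.3%, 28.9% and 22.5% in mec-8 libraries, against 12.2%, 23.6% and 40.3% in wild-type libraries. Wild-type replicate 1, high in oocyte genes, thus had the largest share of hrde-1 and the smallest share of csr-1 among the 6 libraries, and wild-type replicate 3 had the largest share of csr-1.

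Among the somatic members, rde-1 (WBGene00004323) was the steadiest gene of the 10. It lies at chrV:9987916-9991642 (minus strand). It had 32.8, 77.1 and 40.7 CPM in mec-8 libraries, against 37.2, 53.5 and 30.6 CPM in wild-type libraries, so that the lowest and highest libraries differed 2.52-fold. Its log2 fold change was 0.30 ± 0.59 (SE), and without mec-8 replicate 2 it was 0.03.

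The microRNA Argonaute genes and nrde-3 had the lowest median levels per kilobase of the 10. alg-1 (WBGene00000105), at chrX:13949110-13956261 (plus strand), had 11.9, 16.4 and 22.5 CPM in mec-8 libraries, against 17.9, 38.7 and 30.9 CPM in wild-type libraries. Only mec-8 replicate 3 reached into the wild-type range, above wild-type replicate 1. Its log2 fold change was -0.75 ± 0.73 (SE) and stayed between -1.19 and -0.59 with 1 library left out.

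alg-2 (WBGene00000106), at chrII:873212-879885 (plus strand), had 32.2, 12.2 and 12.3 CPM in mec-8 libraries, against 33.6, 29.5 and 20.9 CPM in wild-type libraries. mec-8 replicates 2 and 3 lay below all wild-type libraries, and mec-8 replicate 1 lay within their range. On the log2 scale the fold change was -0.41 ± 0.78 (SE). It was -1.42 without mec-8 replicate 1, -0.086 without mec-8 replicate 2 and -0.16 without mec-8 replicate 3.

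The balance of alg-1 and alg-2 differed between libraries. alg-1 made up 26.97%, 57.5% and 64.6% of the counts on alg-1 and alg-2 in mec-8 libraries, against 34.8%, 56.8% and 59.7% in wild-type libraries. The exact 95% binomial intervals were 24.7% to 29.3% in mec-8 replicate 1 and 32.1% to 37.5% in wild-type replicate 1, both below those of the other 4 libraries. The libraries numbered 1 were also the 2 with the most touch neuron counts. These took 1.15% of gene counts in mec-8 and 1.47% in wild type, against 0.103% to 0.483% in the other 4. Taken singly, 5 of the 10 touch neuron genes were highest in mec-8 replicate 1 and 5 in wild-type replicate 1, while mec-14 was lowest in wild-type replicate 1. The same libraries were highest in the sum of the 6 yolk genes, at 46845 and 5537 CPM against 2.02 to 3458 CPM. For vit-2 and vit-6, mec-8 replicate 3 stood above wild-type replicate 1, and the other vit genes had the reverse order. The libraries numbered 1 also had the most alignments that were not unique, at 11988379 and 70024247 against 1922629 to 6843792. The part of touch neuron content, yolk RNA or alignments that were not unique in the alg-1 and alg-2 balance was not tested. alg-1 has 6696 bases of exon and alg-2 has 4142, so these shares are of counts and not of molecules.

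nrde-3 (WBGene00019862), at chrX:372235-376900 (plus strand), had 6.50, 14.2 and 18.3 CPM in mec-8 libraries, against 6.35, 59.0 and 10.3 CPM in wild-type libraries. Wild-type replicate 2 stood apart from the other 5 libraries. Its log2 fold change was -0.79 ± 0.99 (SE), and without wild-type replicate 2 it was 0.45. That library was also the highest in the sum of the 6 hypodermal genes, at 5529 CPM against 58.5 to 2043 CPM in the others. Of the 6, 1 was at 0 counts in mec-8 replicate 3 and 2 in wild-type replicate 1. Most of the sum came from sqt-3, with 4621 CPM in wild-type replicate 2. Taken singly, 4 of the 6 were highest there, while bli-1 was lowest there and elt-3 was highest in wild-type replicate 1. These genes were named after their values were seen. The part of hypodermal RNA in the nrde-3 level of wild-type replicate 2 was not tested.

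Ordered by the median level per kilobase, prg-1 was followed by csr-1, hrde-1 at 24.4, alg-4 at 20.7, ergo-1 at 13.6, alg-3 at 12.6, rde-1 at 12.1, alg-2 at 6.08, nrde-3 at 3.56 and alg-1 at 3.02 CPM per kilobase. The steps that held in all 6 libraries were prg-1 above csr-1 and rde-1 above alg-2. csr-1 was above hrde-1 in 5 of 6. The remaining neighbours kept their order in only 3 or 4 of 6 libraries, and no test was run on these steps. Taking coding length in place of exon length exchanged only nrde-3 and alg-1.

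The profiles most like those of the other members were found in the same way. For prg-1 they were gtf-2E1 at a root mean square difference of 0.12 in log2 CPM and F55G1.6 at 0.15, and for csr-1 they were ekl-6 at 0.10 and ulp-2 at 0.19. For hrde-1 they were gsy-1 at 0.13 and nlp-14 at 0.16, and for ergo-1 they were vha-5 and cpt-1, both at 0.20. For rde-1 they were smcr-8 at 0.11 and C17E4.6 at 0.12, and for nrde-3 they were T09B4.4 at 0.09 and tmd-2 at 0.13. For alg-1 they were gst-5 at 0.21 and tric-1B.1 at 0.24, and for alg-2 they were cpin-1 at 0.21 and npr-12 at 0.22. Among the 10 members themselves the nearest pair was ergo-1 and hrde-1, at 0.57.

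Other Argonaute genes of the worm were read for comparison, and 10 of the 13 listed were matched to the counts. Of these 0 passed edgeR's test in either direction, and their median log2 fold change was -0.19. wago-10, an Argonaute described from sperm-producing germ cells, had 197, 55.0 and 49.9 CPM in mec-8 libraries, against 0, 0.717 and 309 CPM in wild-type libraries. These are the libraries in which alg-3 and alg-4 were high and low, and its profile lay 1.21 from that of alg-4, in place 272 of 14613, and 2.04 from that of alg-3, in place 882. For wild-type replicate 1, a count of 0 allows up to 0.130 CPM. wago-10 was named after its values were seen.

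By contrast, wago-1 and wago-4, WAGO genes of the germline, were present in every library. wago-1 had 176, 399 and 178 CPM in mec-8 libraries, against 721, 153 and 283 CPM in wild-type libraries, with a log2 fold change of -0.68 ± 0.80 (SE). alg-5, a microRNA-binding relative of alg-1, had the smallest p of this list, with 12.1, 38.4 and 2.73 CPM in mec-8 libraries, against 58.9, 13.7 and 26.7 CPM in wild-type libraries. sago-1, a secondary Argonaute, had a log2 fold change of 0.69 ± 0.80 (SE). None of these separated the genotypes.

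**Figure D5:**
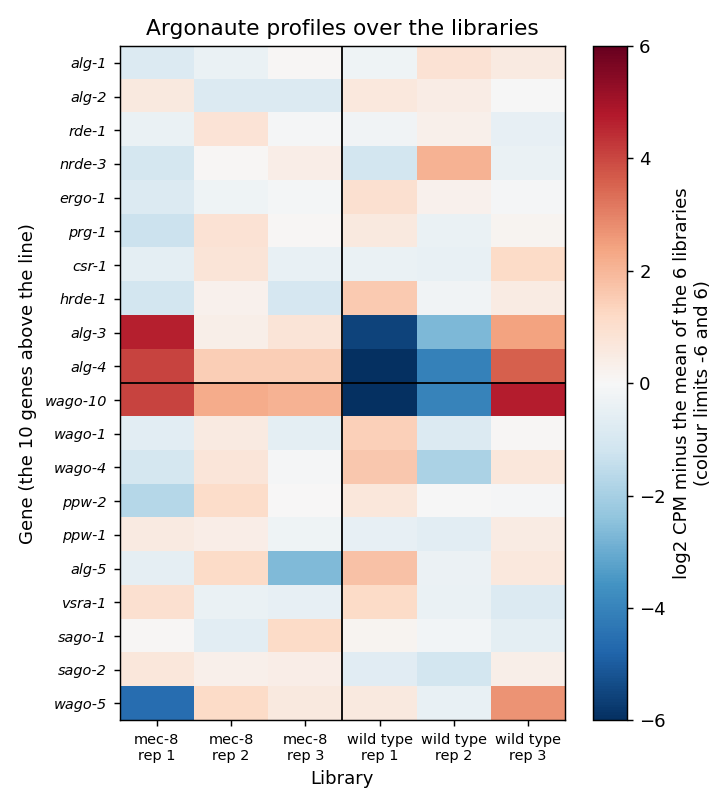
Log2 CPM minus the mean of the 6 libraries, as colour, for the 10 Argonaute genes (above the line) and 10 other Argonaute genes (rows) in each library (columns, mec-8 left, wild type right). alg-3, alg-4 and wago-10 are red in mec-8 replicate 1 and wild-type replicate 3 and blue in wild-type replicates 1 and 2, and alg-4 and wago-10 in wild-type replicate 1 lie past the colour limit of -6.

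The genes that make, amplify and use small RNAs were read as 7 further lists. Together with the other Argonaute genes, 62 of 65 listed genes were matched and tested. Of these 0 had an adjusted p under 0.05 in edgeR, DESeq2 or limma voom, and 1 had an unadjusted p under 0.05 in edgeR, where 3.22% of all genes did. Their median log2 fold change was -0.23, with 22 above 0 and 40 below.

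The genes of germ granules, which hold small RNA pathways at the germline nucleus, had the lowest median of the lists, -0.80, with 6 of 7 below 0. deps-1 had 30.3, 79.5 and 16.9 CPM in mec-8 libraries, against 268, 26.6 and 71.3 CPM in wild-type libraries (log2 fold change -1.63, standard error 0.97). glh-1, a Vasa-like helicase, had 465, 2200 and 534 CPM in mec-8 libraries, against 1514, 727 and 3034 CPM in wild-type libraries. znfx-1, a helicase of inherited silencing, ranged from 7.77 to 69.2 CPM in mec-8 libraries and from 9.97 to 71.8 CPM in wild-type libraries. These genes were uneven within each genotype.

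The 8 genes of microRNA processing and effectors all had log2 fold changes below 0, from -0.90 to -0.0014, with 0 past the test. The lowest was tsn-1, a Tudor nuclease of the silencing complex, with 111, 220 and 53.1 CPM in mec-8 libraries, against 186, 153 and 296 CPM in wild-type libraries. pash-1 and drsh-1, which together cut primary microRNAs, followed at -0.79 ± 0.86 (SE) and -0.44 ± 0.82 (SE).

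For primary siRNA production the median log2 fold change was -0.24 over 6 genes. The smallest p-values there belonged to eri-1, an exonuclease, at -0.65 ± 0.85 (SE), eri-3 at 0.53 ± 0.79 (SE) and rrf-3, an RNA-dependent RNA polymerase, at -0.46 ± 0.72 (SE). The 13 genes of secondary siRNA amplification had a median of -0.27. rde-11, part of an RNAi amplification complex, was the only one of them whose mec-8 libraries all lay above wild type, with 33.6, 27.9 and 23.7 CPM in mec-8 libraries, against 7.90, 22.5 and 21.8 CPM in wild-type libraries. Of all genes tested 5.5% had this order, and the log2 fold change of rde-11 was 0.72 ± 0.77 (SE). After TMM scaling its libraries overlap, with wild-type replicate 3 above mec-8 replicates 2 and 3. mut-14, an RNA helicase, stood at -1.01 ± 1.08 (SE), and rde-10, the partner of rde-11, at -0.50 ± 0.60 (SE).

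The 6 genes of nuclear RNAi and heterochromatin had a median log2 fold change of 0.02, led by nrde-4 at 0.66 ± 0.66 (SE), nrde-2 at 0.58 ± 0.67 (SE) and the heterochromatin protein gene hpl-2 at -0.29 ± 0.68 (SE). The 8 genes of piRNA biogenesis had a median of -0.12. tofu-6 and tofu-5 stood at -1.21 ± 0.93 (SE) and -1.17 ± 1.01 (SE), each highest in wild-type replicate 1, at 153 and 61.6 CPM. parn-1, which trims piRNAs, stood at 0.84 ± 0.89 (SE).

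In the list for transport of double-stranded RNA, sid-2 was the 1 gene with an unadjusted p under 0.05. It had 7.22, 7.74 and 18.4 CPM in mec-8 libraries, against 1.04, 3.51 and 0.391 CPM in wild-type libraries, and the genotypes do not overlap. In edgeR it stood at 3.01 ± 1.16 (SE) on the log2 scale, with an unadjusted p = 0.0340 and an adjusted p = 1.0 after Benjamini-Hochberg. SID-2 takes up double-stranded RNA from the lumen of the intestine. The summed level of the 5 intestinal marker genes also lay higher in mec-8 libraries, at 835 to 2370.5 CPM, than in wild-type libraries, at 95.5 to 678 CPM, with 0 of the 5 at 0 counts in any library. Taken singly, 4 of the 5 did not overlap and act-5 did, and their part in the sid-2 difference was not tested. Over all genes tested, 5.5% had every mec-8 library above every wild-type library. In edgeR, 2.87% of all genes tested had an unadjusted p under 0.05 and were higher in mec-8. The other 2 genes with the smallest p of this list, sid-3 at 0.21 ± 0.79 (SE) and sid-5 at 0.17 ± 0.97 (SE), overlapped between genotypes.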

How the data were processed

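The authors mapped paired-end reads with STAR to WBcel235 and counted them per gene with HTSeq. The deposited values are raw counts, 1 column per library. The strand setting and annotation release are not given in the sources used here, so overlapping genes and close paralogs are uncertain. Counts were used as deposited, with lines for reads on no gene (0.385% to 3.57% of unique reads) or on more than 1 gene left out. Exon lengths were unions of annotated exons. Genotypes were compared with edgeR 4.0.16 (R 4.3.3), quasi-likelihood test, TMM, filterByExpr and Benjamini-Hochberg adjustment at 0.05 over 14614 genes. Standard errors (SE) were the size of the log2 fold change divided by the root of F. Exact tests used scipy 1.17.1. The fits were tested on simulated data.

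Alternatives were DESeq2 1.42.0, limma 3.58.1 voom with quality weights, upper-quartile or library-size scaling, no filter or 10 counts in every library, a replicate block, other denominators, coding length and each library left out. Leaving out both libraries numbered 1 was added after the data were seen. The members and gene lists were chosen with earlier results of these data known. Named genes are the members, the 3 genes of each pathway list with the smallest p, and the 2 profiles nearest each member by root mean square difference of centred log2 CPM (prior count 0.5). Marker genes named singly, wago-4 and wago-10 fall outside this rule and were chosen after their values were seen. Gene models named wago-2, wago-11 and prg-2, and the intestinal marker opt-2, were not matched. Promoter and protein sequences were not used here.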

Additional observations from a re-analysis of the deposited data

How the results depend on the processing

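Under every alternative run, 0 of the 10 Argonaute genes and 0 of the small RNA pathway genes had an adjusted p under 0.05. Over all genes, DESeq2 gave 44 genes where edgeR gave 0. Of 139 alternative fits of a member, 8 turned the sign of the log2 fold change, in 5 members. With 1 library left out, the log2 fold change ran from -1.39 to 0.45 for nrde-3, from -0.54 to 0.0082 for prg-1, from -0.85 to 0.48 for csr-1, from -0.65 to 7.22 for alg-3 and from -0.94 to 8.13 for alg-4. Without both libraries numbered 1 it was 0.11 for prg-1, -1.42 for alg-3 and -1.72 for alg-4. The cause was not tested. The other 5 members kept their sign in all fits. alg-4 was not fitted at 10 counts in every library, having 6 counts in wild-type replicate 1. Other denominators moved 0 of 40 mean levels past 1 SD. That SD was wide for some members, at 371 CPM beside a mean of 256 CPM for alg-3 in mec-8, so a modest shift could not have passed it. There the mean was 245 CPM over all uniquely mapped reads and 297 CPM without msp, vit and col genes. Whether libraries of the same number were prepared together cannot be decided from these 6 libraries. Deviations of same-numbered libraries from their genotype means correlated across genes at 0.0678, 0.474 and -0.167, and 2 of 6 libraries correlated best with their own number. With the replicate block, 0 of 14614 genes passed, 240 had an unadjusted p under 0.05, and the log2 fold change was 3.10 for alg-3 and 5.36 for alg-4. alg-3 and alg-4 had 6 to 118 counts in wild-type replicates 1 and 2, so their levels there are the least precise.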
